A study of Homo sapiens with 3 samples.

Results

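The aminoacyl-tRNA synthetases are the enzymes that join each amino acid to its matching transfer RNA. The 36 genes described here were chosen by their listed symbols in the symbol column of the expression table, and the rule itself uses no measured value. All 36 were found once among the 60930 genes of the table. They comprise 20 genes for cytosolic enzymes and 16 for mitochondrial enzymes, whose symbols end in 2.

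Gene expression was measured by RNA-seq of total RNA from PC3 cells, an androgen-independent human prostate cancer cell line, to ask how loss of the deubiquitinase USP16 alters transcripts. The cells stably expressed short hairpin RNAs from the pLKO.1 vector and had been selected with puromycin. There were 3 libraries, namely 1 from cells with the vector control (shCON), 1 from cells with the hairpin shUSP16#1 and 1 from cells with shUSP16#2. With 1 library per condition no difference below has a replicate check, no test could be made, and both hairpins were compared with the same shCON library.

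The authors deposited TPM values, in which reads are divided by transcript length and every library is scaled to a common sum. Sequencing depth is therefore unknown, and a lower TPM cannot be told apart from more RNA of other genes. Transcripts of USP16, the hairpins' target, stood at 19.9 TPM in control cells, 3.50 TPM with shUSP16#1 and 1.08 TPM with shUSP16#2. Transcripts of MYC, whose protein the study links to USP16, were at 238 TPM, 209 TPM and 173 TPM in the same order. The epithelial keratins KRT8 and KRT18 were at 622 to 947 TPM, and KLK3, which encodes prostate-specific antigen, was listed at 0 in every library. Changes are given as log2(TPM + 1) under a hairpin minus the same value in shCON, so that changes of weakly expressed genes come out too small. Genes whose mean reached 1 TPM are called expressed, and there were 13637 of them, among them all 36 synthetases. The median change of the expressed genes was -0.17 under shUSP16#1 and -0.37 under shUSP16#2, so each synthetase is also placed above or below that median.

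A synthetase first activates its amino acid with ATP and then transfers it to the end of the transfer RNA, and many of these enzymes remove wrongly attached amino acids. Human cells translate in the cytosol and in the mitochondrion, and most amino acids have a separate nuclear gene for each compartment, with GARS and KARS each encoding both forms. Several cytosolic synthetases sit in a multisynthetase complex held together by the scaffold proteins AIMP1, AIMP2 and EEF1E1, and when amino acids run short the transcription factor ATF4 is known to induce a number of the cytosolic genes.

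The binding element of ATF4 paired with a C/EBP protein, TGATGNAA, and the E-box CACGTG, bound by MYC with MAX among others, were searched on both strands of RefSeq promoter windows (GRCh38.p14). Each window ran from 250 bases before to 50 bases after a start site. Windows were matched for 30 of the 36 synthetases, leaving DARS, LARS, VARS, YARS, AARS2 and VARS2 without one. TGATGNAA was found in 8 of the 30 synthetases and in 1217 of all 27305 genes with a window (4.46%). The sequences are shown because the lowest and the highest cytosolic genes in the comparisons below both carry the element. Each is printed on the strand on which the element reads forward, with the element in capitals.
AARS, chr16:70289676-70289703: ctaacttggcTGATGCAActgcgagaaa
CARS, chr11:3057408-3057435: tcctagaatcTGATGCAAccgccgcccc
GARS, chr7:30594835-30594862: gctcggagcaTGATGAAAtcgccgcgta
IARS, chr9:92293693-92293720: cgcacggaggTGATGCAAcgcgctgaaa
MARS, chr12:57488054-57488081: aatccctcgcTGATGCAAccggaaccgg
NARS, chr18:57621805-57621832: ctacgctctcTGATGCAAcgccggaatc
TARS, chr5:33440957-33440984: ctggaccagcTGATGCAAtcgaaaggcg
YARS2, chr12:32756077-32756104: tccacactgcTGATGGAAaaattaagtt

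In NARS and YARS2 the element read forward on the gene's own strand, and in the other carriers it read forward on the opposite strand. It began 187 bases before the start site in AARS and 197 bases before it in YARS2, and lay within 33 bases of a start site in the rest. The letters were TGATGCAA in AARS, CARS, IARS, MARS, NARS and TARS. YARS2 was the mitochondrial enzyme among the carriers.

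CACGTG was found in 4 of the 30 synthetases and in 2396 of the 27305 genes. These E-boxes, in capitals below, are shown because 2 of the carriers, IARS and MARS2, belong to the c-Myc signature described further on.
IARS, chr9:92293868-92293893: gttcgttttcCACGTGgaggcgcaaa
CARS2, chr13:110706503-110706528: ctgggatgcaCACGTGcttcgctaac
EARS2, chr16:23557350-23557375: gggagaagccCACGTGtgctattcca
MARS2, chr2:197705348-197705373: gcgcctctcaCACGTGctgtcagaac
A match to a motif describes the letters of the window and does not show binding, and a window without a match says only that these letters are not in it.

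In control cells the cytosolic genes were expressed at a median of 77.7 TPM, from 30.8 TPM for FARSB to 255 TPM for FARSA. The mitochondrial genes had a median of 15.2 TPM, from 3.66 TPM for PARS2, the prolyl enzyme, to 106 TPM for CARS2, the cysteinyl enzyme. The ranges of the compartments therefore overlapped, with CARS2 and IARS2 as high as many cytosolic genes. Summed over the genes, the cytosolic enzymes were at 1872 TPM in control cells, 1700 TPM with shUSP16#1 and 1563 TPM with shUSP16#2. The mitochondrial sums were 426 TPM, 375 TPM and 356 TPM. The ratio of the sums stayed between 4.39 and 4.53 in the 3 libraries.

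**Figure D1:**
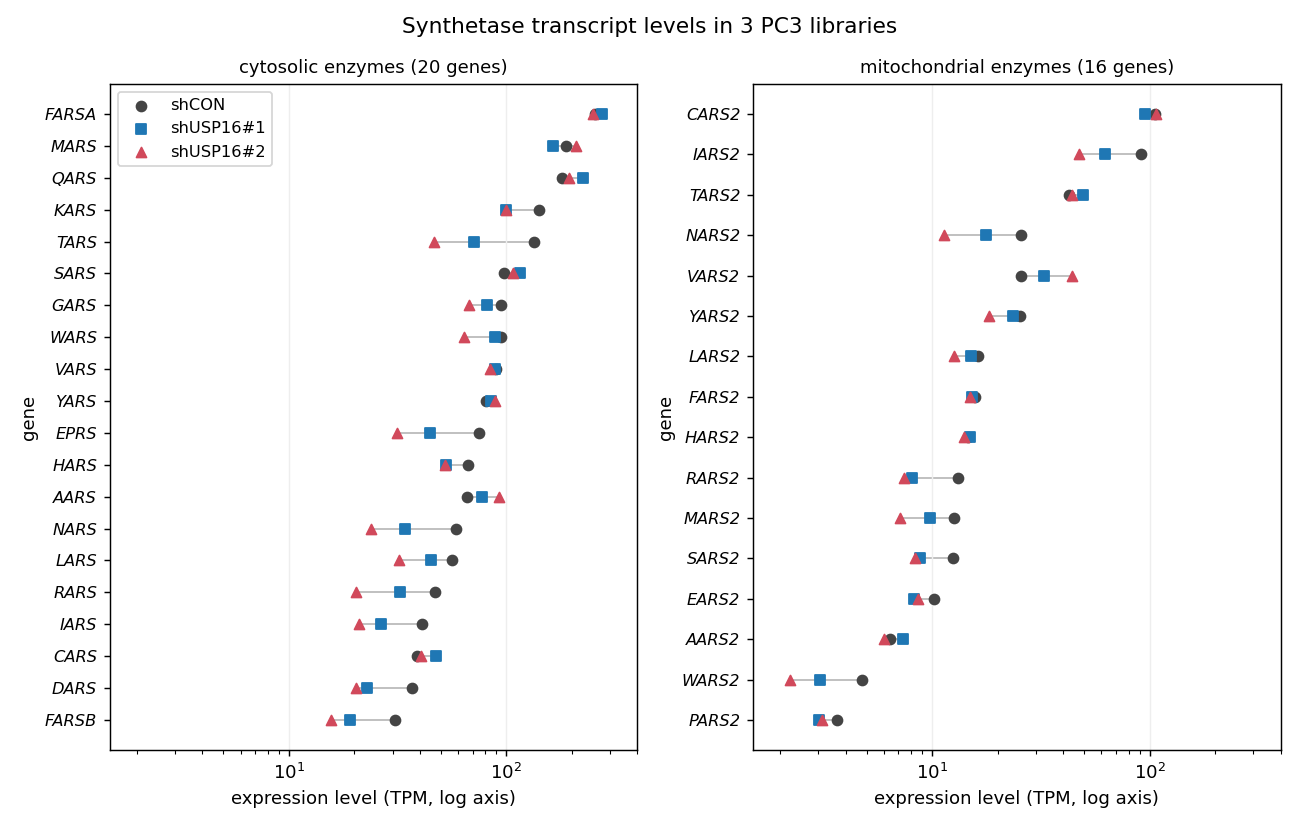
Expression of each synthetase gene in the 3 libraries, with TPM on a log axis, cytosolic genes in the left panel and mitochondrial genes in the right panel. Each point is 1 library, and FARSA stands at 251 to 277 TPM in all libraries while TARS lies at 133 TPM in shCON and 46.6 TPM under shUSP16#2.

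Most synthetase transcripts were lower in both knockdown libraries than in shCON, and none was 2-fold lower or higher in both. Lower values under both hairpins were seen for 24 of the 36 genes (66.7%), beside 57.2% of the expressed genes. Higher values under both were seen for 7 genes (19.4%), beside 24.5% of the expressed genes, and 5 genes moved in opposite directions. Relative to the median of the expressed genes, 16 synthetases lay below it under both hairpins (44.4%) and 14 lay above it under both (38.9%), and each of these sides held 41.7% of the expressed genes. The synthetases were thus spread about the median of all genes.

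A 2-fold difference, counted on the log2(TPM + 1) scale, was rare among them. Under both hairpins 0 of 36 synthetases were at least 2-fold lower, beside 4.6% of the expressed genes, and 0 were at least 2-fold higher, beside 1.14%. Under shUSP16#1 alone 0 were at least 2-fold lower, beside 5.79% of the expressed genes. Under shUSP16#2 alone 5 of 36 were, beside 19.5%, and these were TARS, NARS, EPRS, RARS and the mitochondrial NARS2. WARS2 was also more than 2-fold lower in TPM itself, at 4.76 TPM in shCON and 2.21 TPM under shUSP16#2, but not on this scale. The value under shUSP16#2 was below that under shUSP16#1 for 28 of 36 synthetases (77.8%) and for 73.4% of the expressed genes.

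**Figure D2:**
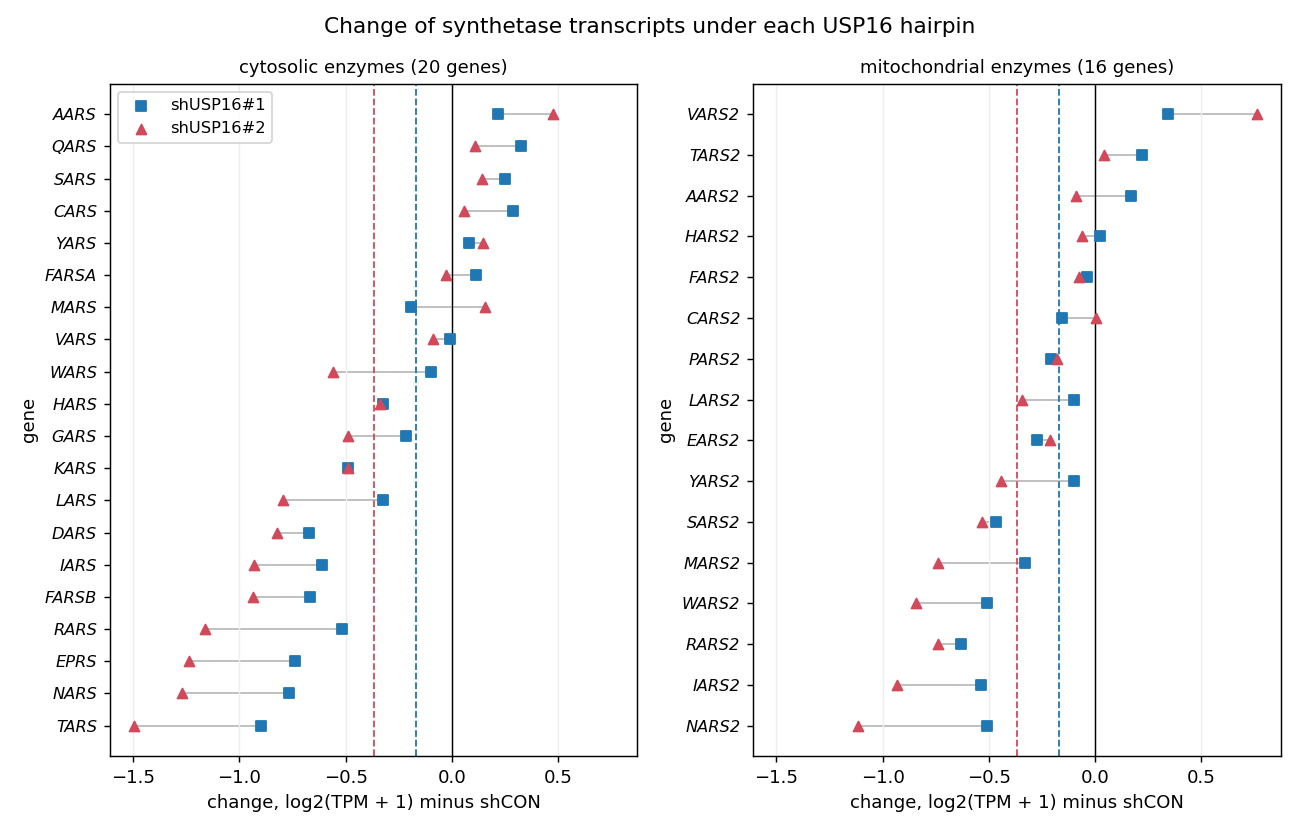
Change of each synthetase gene on the log2(TPM + 1) scale under shUSP16#1 and shUSP16#2, with cytosolic and mitochondrial genes in separate panels and vertical lines for the median of all expressed genes under each hairpin. TARS is lowest, at -0.90 and -1.5, and VARS2 is highest, at 0.34 and 0.76.

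Among the cytosolic enzymes the median change was -0.27 under shUSP16#1 and -0.49 under shUSP16#2, with 13 of 20 genes lower and 5 higher under both. Of these 20 genes, 10 lay below the median of the expressed genes under both hairpins and 7 lay above it. The mitochondrial medians were -0.18 and -0.28, with 11 of 16 genes lower and 2 higher under both, 6 below the median of the expressed genes and 7 above it. The cytosolic median was thus below the mitochondrial one by 0.09 under shUSP16#1 and by 0.21 under shUSP16#2. Cytosolic transcripts also had a lower median GC content than mitochondrial ones, 47.9% against 52.1%. Over all expressed genes the changes trended with GC content, and once that trend was removed the cytosolic median minus the mitochondrial one was -0.07 and 0.03, so the order of the compartments under shUSP16#2 was the opposite.

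TARS, which charges threonine, had the lowest change of all 36 genes. Its transcripts were at 133 TPM in control cells, 71.2 TPM with shUSP16#1 and 46.6 TPM with shUSP16#2, changes of -0.90 and -1.5. Its mean change stood at percentile 5.91 of the expressed genes. NARS, the asparaginyl enzyme, was at 59.0 TPM, 34.2 TPM and 23.9 TPM, changes of -0.77 and -1.27. Both genes remained low after the GC trend was removed, with TARS at -0.61 and -1.11 and NARS at -0.48 and -0.88, although SARS2 then had the lowest mean of all members. Both carry the ATF4 element shown above close to their start sites.

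The enzymes of the multisynthetase complex were mostly on the lower side. EPRS, a single protein that charges both glutamate and proline, was at 75.1 TPM in control cells, 44.7 TPM with shUSP16#1 and 31.3 TPM with shUSP16#2, changes of -0.74 and -1.24. RARS, for arginine, was at 46.9 TPM, 32.5 TPM and 20.4 TPM, changes of -0.52 and -1.16. Both were past 2-fold under shUSP16#2 only. IARS, for isoleucine, was at 41.1 TPM, 26.6 TPM and 21.1 TPM. DARS, for aspartate, was at 36.9 TPM, 22.8 TPM and 20.4 TPM. LARS, which charges leucine and is also known as a leucine sensor for mTORC1, was at 56.4 TPM, 44.9 TPM and 32.1 TPM. In all of these genes shCON was highest and shUSP16#2 lowest.

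The remaining complex enzymes differed from that pattern. KARS, the lysyl enzyme of both compartments, was at 141 TPM in shCON and at 99.96 TPM and 100.09 TPM under the hairpins, equal changes of -0.49. QARS, for glutamine, was at 180 TPM in shCON and at 226 TPM and 195 TPM under the hairpins, changes of 0.32 and 0.11. MARS, for methionine, was at 188 TPM, 164 TPM and 209 TPM, lower under one hairpin and higher under the other.

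As a group, the 8 complex enzymes had medians of -0.50 and -0.81, and 6 of them lay below the median of the expressed genes under both hairpins. The 12 other cytosolic genes had medians of -0.05 and -0.22, with 4 below. These counts stand beside 41.7% of the expressed genes below that median under both hairpins. The complex enzymes were also poorer in GC, with a median of 42.9% against 49.9%. After the GC trend was removed the complex medians were -0.24 and -0.25 and the others -0.14 and -0.39, so under shUSP16#2 the order was the opposite. Of the 6 complex enzymes only EPRS and IARS then stayed below the median of the expressed genes under both hairpins. LARS, at 0.04 and -0.28, lay above it under both. Beyond this, the part of GC content in the difference was not tested.

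The transcripts of the scaffold proteins of the complex were not alike before the GC trend was removed. AIMP1 was at 25.8 TPM in control cells, 14.0 TPM with shUSP16#1 and 8.28 TPM with shUSP16#2, changes of -0.84 and -1.53. EEF1E1 was at 89.4 TPM, 56.8 TPM and 43.3 TPM, changes of -0.65 and -1.03. AIMP2 was at 64.2 TPM, 63.4 TPM and 47.0 TPM, changes of -0.02 and -0.44. AIMP1 and EEF1E1 had GC contents of 38.4% and 40.6%, and AIMP2 had 52.3%. Without the GC trend the changes were -0.40 and -0.80 for AIMP1, -0.21 and -0.41 for EEF1E1, and -0.12 and -0.56 for AIMP2. AIMP2 then lay below EEF1E1 under shUSP16#2.

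Of the cytosolic enzymes outside the complex, AARS, for alanine, had the highest mean change. It was at 66.2 TPM in control cells, 77.1 TPM with shUSP16#1 and 92.4 TPM with shUSP16#2, changes of 0.22 and 0.47, and percentile 85.4 of the expressed genes by its mean. SARS, for serine, was at 97.2 TPM, 116 TPM and 107 TPM. YARS, for tyrosine, was at 80.2 TPM, 85.0 TPM and 89.0 TPM. These genes were higher than shCON under both hairpins, and they stayed above 0 under both after the GC trend was removed. CARS, for cysteine, was also higher under both, at 38.8 TPM, 47.6 TPM and 40.4 TPM, but its change under shUSP16#2 without the GC trend was -0.05. AARS and CARS carry the ATF4 element, as do TARS and NARS at the other end of the range.

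GARS, the glycyl enzyme of both compartments, was at 94.7 TPM in control cells, 81.4 TPM with shUSP16#1 and 67.3 TPM with shUSP16#2. WARS, for tryptophan and known for its induction by interferon, was at 94.6 TPM, 88.3 TPM and 63.9 TPM. VARS, for valine, was at 89.5 TPM, 88.8 TPM and 84.0 TPM. All were highest in shCON, with changes between -0.01 for VARS under shUSP16#1 and -0.56 for WARS under shUSP16#2.

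The phenylalanyl enzyme of the cytosol is built from subunits encoded by FARSA and FARSB, and their transcripts diverged. FARSA, the catalytic subunit, was at 255 TPM in control cells, 277 TPM with shUSP16#1 and 251 TPM with shUSP16#2. FARSB, its partner, was at 30.8 TPM, 19.1 TPM and 15.7 TPM, changes of -0.67 and -0.94. The ratio of FARSA to FARSB was 8.28 in control cells, 14.5 with shUSP16#1 and 16.0 with shUSP16#2. The transcripts of these subunits stand near opposite ends of the GC range, at 61.8% for FARSA and 41.6% for FARSB. Without the GC trend their changes were -0.27 and -0.53 for FARSA and -0.24 and -0.33 for FARSB, and FARSA then lay below FARSB under both hairpins.

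VARS2, the mitochondrial valyl enzyme, had the highest change of the 36 genes before the GC trend was removed. It was at 25.5 TPM in control cells, 32.7 TPM with shUSP16#1 and 43.9 TPM with shUSP16#2, changes of 0.34 and 0.76 and percentile 92.2 by its mean. Without the GC trend its changes were 0.11 and 0.38, and SARS then had the highest mean. Its transcripts share 21.2% of their 50-base words with other genes, nearly all with the neighbouring gene GTF2H4, which encodes a subunit of the general transcription factor TFIIH, and how the authors' counting divided such reads is not given. GTF2H4 was at 33.4 TPM, 39.7 TPM and 34.0 TPM, changes of 0.24 and 0.03. Its change was thus smaller than that of VARS2 under both hairpins. TARS2, for threonine, was the other mitochondrial gene higher under both, at 42.5 TPM, 49.6 TPM and 43.8 TPM.

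The mitochondrial genes with the lowest mean changes were NARS2, IARS2, RARS2 and WARS2. NARS2, for asparagine, was at 25.6 TPM in control cells, 17.7 TPM with shUSP16#1 and 11.3 TPM with shUSP16#2, changes of -0.51 and -1.11. IARS2, for isoleucine, was at 91.2 TPM, 62.5 TPM and 47.3 TPM, changes of -0.54 and -0.93. WARS2, for tryptophan, was at 4.76 TPM, 3.05 TPM and 2.21 TPM, a level at which the added 1 TPM understates the change. RARS2, for arginine, was at 13.1 TPM, 8.11 TPM and 7.46 TPM, and MARS2, for methionine, was at 12.6 TPM, 9.81 TPM and 7.14 TPM. In each of these the order of the libraries was that of TARS. Without the GC trend the changes of IARS2 were -0.11 and -0.32, both above the median of the expressed genes, and those of RARS2 were -0.20 and -0.12. SARS2 and EARS2 then had the lowest means of the mitochondrial genes, EARS2 with changes of -0.52 and -0.62.

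SARS2, which serves the serine transfer RNAs of the mitochondrion, was low for its GC content. It was at 12.5 TPM in control cells, 8.75 TPM with shUSP16#1 and 8.31 TPM with shUSP16#2, changes of -0.47 and -0.53. With 61.9% it had the highest GC content of all members, and without the GC trend its changes were -0.85 and -1.04. Of its 50-base words 47.7% occur in other genes, 39.5% in AC011455.2, which was listed at 0 in every library, and 8.21% in the ribosomal protein gene MRPS12, at 113 to 120.4 TPM. The value of SARS2 therefore depends on how shared reads were assigned, which is not given.

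The other mitochondrial enzymes lay closer to shCON. FARS2, for phenylalanine, was at 15.8 TPM, 15.3 TPM and 14.9 TPM, and CARS2 was at 106 TPM, 95.2 TPM and 107 TPM. LARS2, for leucine, was at 16.3 TPM, 15.2 TPM and 12.6 TPM, and YARS2, for tyrosine, was at 25.2 TPM, 23.5 TPM and 18.3 TPM. EARS2, for glutamate, was at 10.2 TPM, 8.26 TPM and 8.64 TPM. AARS2, for alanine, was at 6.43 TPM, 7.36 TPM and 5.98 TPM, and PARS2 was at 3.66 TPM, 3.03 TPM and 3.11 TPM. Changes of these genes ran from 0.17 for AARS2 under shUSP16#1 to -0.44 for YARS2 under shUSP16#2.

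HARS and HARS2, the cytosolic and mitochondrial histidyl enzymes, are transcribed away from each other. Their RefSeq start sites on chromosome 5 lie at 140691370 for HARS on the reverse strand and at 140691455 for HARS2 on the forward strand, with 84 bases between them. The segment is shown on the forward strand because the promoter windows of both genes contain it.
HARS to HARS2, chr5:140691371-140691454: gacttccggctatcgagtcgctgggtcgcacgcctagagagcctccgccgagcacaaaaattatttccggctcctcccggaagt
Although the start sites are this close, the genes differed in level. HARS was at 66.5 TPM in control cells, 52.8 TPM with shUSP16#1 and 52.3 TPM with shUSP16#2, changes of -0.33 and -0.34. HARS2 was at 14.7 TPM, 15.0 TPM and 14.0 TPM, changes of 0.02 and -0.06. The genes also share 8.71% of the 50-base words of HARS2, so reads could be split between them.

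For 13 amino acids 1 cytosolic gene could be set against 1 mitochondrial gene. The cytosolic gene was higher in every library in 11 of these pairs, with a median ratio of 3.51 over the 13 pairs in shCON. The exceptions were cysteine and isoleucine. CARS2 was 2.74, 2.00 and 2.64 times as high as CARS in the shCON, shUSP16#1 and shUSP16#2 libraries, and IARS2 was 2.22, 2.35 and 2.24 times as high as IARS.

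The change of the cytosolic gene was below that of its mitochondrial counterpart under both hairpins in 5 pairs and above it in 6. The median difference over the pairs was 0.05 under shUSP16#1 and 0.002 under shUSP16#2, so within pairs neither compartment was lower throughout. Before the GC trend was removed, the threonine pair differed most. TARS was 3.14 times as high as TARS2 in shCON, 1.44 times under shUSP16#1 and 1.06 times under shUSP16#2. The serine pair went the other way, with SARS at 7.80, 13.2 and 12.9 times SARS2. The valine ratio of VARS to VARS2 was 3.51, 2.72 and 1.91, and the methionine ratio of MARS to MARS2 was 14.9, 16.8 and 29.3. VARS and VARS2 are close in GC content, at 60.5% and 59.3%, whereas TARS and TARS2 are at 44.6% and 54.9%. Without the GC trend the serine pair differed most, with the change of SARS minus that of SARS2 at 1.18 and 1.30. The threonine difference was then -0.70 and -0.89, and the valine difference -0.49 and -0.998. The serine and valine values depend on how reads that SARS2 and VARS2 share with other genes were assigned, which is not given.

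**Figure D3:**
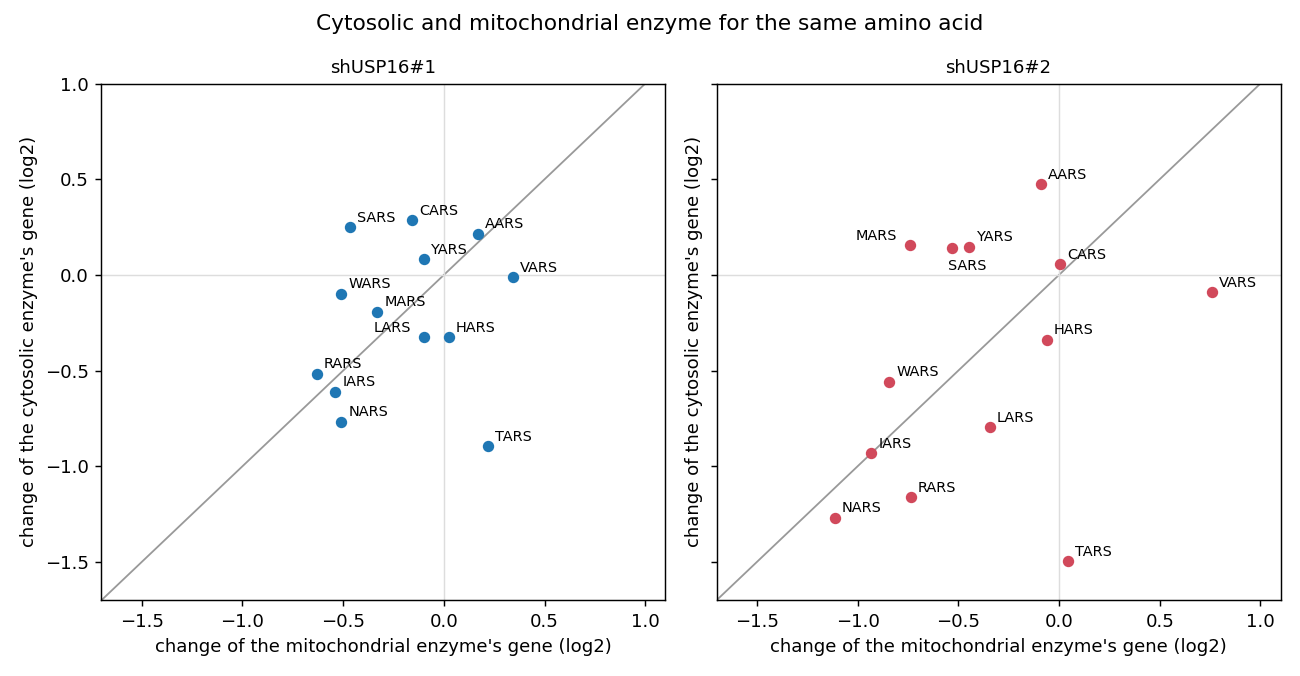
Change of the cytosolic gene (vertical axis) against the change of the mitochondrial gene for the same amino acid (horizontal axis), both on the log2(TPM + 1) scale, under each hairpin. Points are named by the cytosolic gene and the diagonal marks equal change, with TARS and VARS below it under both hairpins and SARS above it.

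Synthetases with transcripts richer in GC had higher changes. Spearman's rho between GC content and change was 0.72 under shUSP16#1 and 0.74 under shUSP16#2 over the 36 genes, and 0.54 and 0.64 over the 13296 expressed genes with a GC value. These coefficients are across genes of the same libraries, which are not independent replicates and share the shCON library. When the members were divided into equal groups of 12 by GC content, all 12 of the poorest, at 40.6% to 44.7%, lay below the median of the expressed genes under both hairpins, with medians of -0.62 and -0.93. Of the middle 12, 3 lay below and 6 above. Of the richest 12, at 53.2% to 61.9%, 1 lay below, which was SARS2, and 8 lay above, with medians of 0.05 and -0.01. The poorest group held 9 cytosolic genes and the richest 5. What part GC content had in the changes was not tested.

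**Figure D4:**
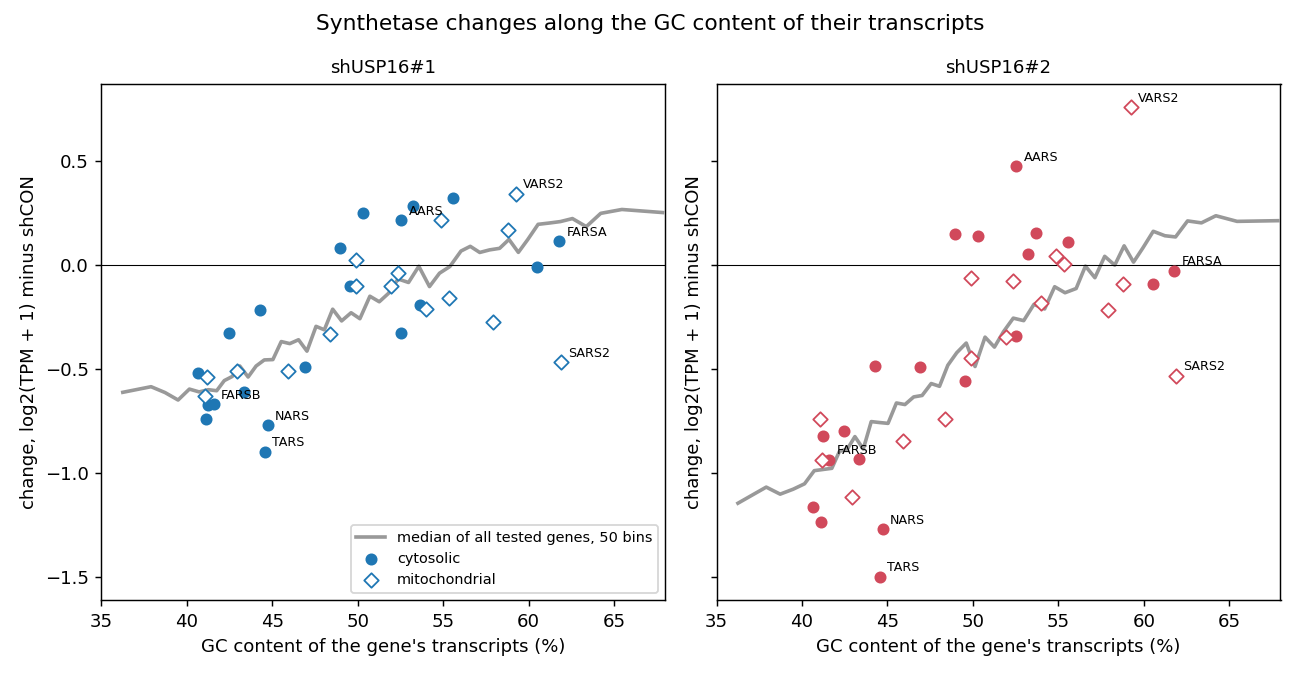
Change of each synthetase gene on the log2(TPM + 1) scale against the GC content of its transcripts in percent, under each hairpin, with filled points for cytosolic and open points for mitochondrial genes. The grey line is the median change of all expressed genes in 50 bins of GC content, from which TARS and NARS stand off below, SARS2 stands off below at high GC, and AARS and VARS2 lie above.

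The c-Myc signature of the study, 310 genes raised by c-Myc overexpression in other samples, holds 8 of the 36 synthetases, namely YARS, GARS, MARS, IARS, EPRS, VARS, LARS and MARS2. Their median changes were -0.27 and -0.61, and those of the other 28 were -0.18 and -0.34. The signature members had a median GC content of 46.3% and the others 51.1%. Without the GC trend the medians were -0.27 and -0.35 for the signature members and -0.17 and -0.33 for the others. Before the trend was removed, YARS and VARS lay above the median of the expressed genes under both hairpins, MARS lay on either side of it, and the other 5 lay below. Each of these sides held 41.7% of the expressed genes. Without the GC trend VARS, at -0.38 and -0.62, lay below it under both. GARS, at 0.10 and -0.10, and LARS, at 0.04 and -0.28, then lay above it.

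The structural classes of synthetases, which differ in the fold of the catalytic domain, each held low and high genes. EPRS, which has a part of each class, was counted as class I. The 19 class I genes had medians of -0.19 and -0.44 and the 17 class II genes -0.22 and -0.34. Without the GC trend the medians were -0.13 and -0.33 for class I and -0.24 and -0.33 for class II.

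Other genes of transfer RNA charging and processing were mostly lower as well. Of the 19 listed, 18 were expressed, 16 were lower under both hairpins, beside 57.2% of the expressed genes, and 1 was higher, beside 24.5%. Relative to the median of the expressed genes, 11 of the 18 lay below it under both hairpins and 5 lay above it. Each of these sides held 41.7% of the expressed genes. The medians were -0.28 and -0.55 beside -0.17 and -0.37 for the expressed genes. Removing the GC trend gave medians of -0.20 and -0.43. None was 2-fold lower in both on the log2(TPM + 1) scale. TARSL2, which encodes a further threonyl enzyme of the cytosol, was at 3.33 TPM in control cells, 0.77 TPM with shUSP16#1 and 1.23 TPM with shUSP16#2, more than 2-fold lower in TPM itself under both, with changes of -1.29 and -0.96. Both genes for cytosolic threonyl enzymes, TARS and TARSL2, were thus lower with the hairpins.

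Before the GC trend was removed, listed ATF4 targets outside the synthetases lay mostly above the median of the expressed genes. Of 25 listed genes, ATF4 itself among them, 23 were expressed, with medians of 0.11 and 0.05. Their changes ran from -0.78 to 1.38 under shUSP16#1 and from -1.19 to 1.40 under shUSP16#2. Under both hairpins 14 of the 23 lay above the median of the expressed genes and 5 lay below, beside 41.7% of the expressed genes on each side. At least 2-fold higher under both, as were 1.14% of the expressed genes, were 2 of the 23, DDIT4, an inhibitor of mTORC1 signalling, at 41.9 TPM, 102 TPM and 89.6 TPM, and the stress gene NUPR1, at 12.8 TPM, 34.9 TPM and 35.4 TPM. Neither stayed 2-fold higher under both without the GC trend, with DDIT4 at 0.82 and 0.50 and NUPR1 at 1.01 and 0.87. ATF4 itself was at 340 TPM, 369 TPM and 351 TPM. The list was rich in GC, with a median of 56.4%. Its medians without the GC trend were -0.05 and -0.25, beside -0.17 and -0.37 for the expressed genes. In that setting fewer of the 23 lay above the median of the expressed genes under both hairpins, and more lay below it. Of the 8 synthetases with the ATF4 element, AARS and CARS lay above the median of the expressed genes under both hairpins, GARS, IARS, NARS and TARS lay below it, and MARS and YARS2 lay on either side. Without the GC trend GARS, at 0.10 and -0.10, and YARS2, at -0.01 and -0.33, joined AARS and CARS above it under both hairpins. IARS, NARS and TARS stayed below it, and MARS stayed on either side.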

How the data were processed

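RNA-seq libraries were made with the Illumina TruSeq kit from total RNA of PC3 cells, and expression profiles came from the Majorbio Cloud Platform. The authors deposited TPM values per gene, normalised by transcript length and library sum, with a column of gene length that was not used in any result. The submitters' processing notes name CASAVA, HISAT2 and hg19 without roles. The quantification tool is not given in the sources used here. Of the gene identifiers, 58457 were found among the transcripts of GENCODE release 29, which is built on GRCh38 and not on hg19, so no coordinates were taken from the table. The table has 3 further columns with repeated headers, which were left unused.

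Where a name occurred more than once the entry with the highest mean was kept, which left out 1211 entries and kept 59719 names, 13637 of them with a mean of at least 1 TPM. Changes used a pseudocount of 1 TPM. GC content was that of the GENCODE release 29 transcripts. To remove the GC trend, genes were put into 50 bins by GC content, each change was taken relative to the median of its bin, and the overall median was added. Shared sequence was counted as words of 50 bases that occur in transcripts of another gene. Promoter windows were those of RefSeq.

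The rule for the members uses no measured value, but the members and lists were proposed and chosen with earlier results of these data known. The genes named were USP16, MYC, every synthetase, every gene of the other lists at least 2-fold changed in the same direction under both hairpins, and neighbours that share sequence. Marker genes, AIMP1, AIMP2, EEF1E1, TARSL2, ATF4 and TUFM are not named by this rule and were picked with their values known. No test could be made with 1 library per condition. The alternatives were a pseudocount of 0.1 TPM, centring on the median, removal of the GC trend, no minimum or a minimum of 5 TPM, each hairpin alone, and leaving out GARS and KARS. A background of protein-coding genes was chosen after seeing the data. The procedures were tested on simulated data. Python 3.11.15, numpy 2.4.6, pandas 2.3.3 and matplotlib 3.10.9 were used.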

Additional observations from a re-analysis of the deposited data

How the results depend on the processing

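No paired analysis was possible because there was a single library for each condition. By the mean of both hairpins, the median change was -0.38 for the cytosolic and -0.23 for the mitochondrial genes. Centring on the median of the expressed genes gave -0.11 for the cytosolic genes and 0.038 for the mitochondrial genes, whose sign therefore turned. The cytosolic minus the mitochondrial median was -0.15, and -0.021 once the GC trend was removed. The count of mitochondrial genes above the median of all genes under both hairpins was 7, and 2 with no minimum, where genes near 0 TPM enter that median. Leaving out 1 hairpin gave 0 to 4 cytosolic and 0 to 1 mitochondrial genes at least 2-fold lower, the higher counts coming from shUSP16#2 alone. With shUSP16#1 alone the cytosolic minus the mitochondrial median was -0.087, and with shUSP16#2 alone -0.21. The pseudocount, the minimum of 5 TPM, leaving out GARS and KARS, and the protein-coding background moved none of these medians or counts by over 1.5 times. Of the 36 single genes, 8 had the other sign after centring, 4 after removal of the GC trend, 4 under shUSP16#2 alone and 1 under shUSP16#1 alone. TPM keeps no depth, so the counting error of low genes such as PARS2 and WARS2 is unknown.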

Other observations

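The factors that carry out translation in the mitochondrion, the process the mitochondrial synthetases supply, were lower in the knockdown libraries. All 9 listed genes were lower under both hairpins, beside 57.2% of the expressed genes, although TUFM was nearly level, with changes of -0.03 and -0.02. The medians were -0.37 and -0.84 beside -0.17 and -0.37 for the expressed genes. Under both hairpins 7 of the 9 lay below the median of the expressed genes and 1 above, beside 41.7% of the expressed genes on each side. GFM1 is the elongation factor that moves the mitochondrial ribosome along the message. It was at 33.1 TPM in control cells, 12.7 TPM with shUSP16#1 and 11.6 TPM with shUSP16#2, changes of -1.32 and -1.44. Of the 9 genes only GFM1 was at least 2-fold lower under both, beside 4.6% of the expressed genes. The list was poor in GC, with a median of 43.4%. Without the GC trend its medians were -0.21 and -0.37, and 0 of its genes were then 2-fold lower under both. TUFM, at -0.32 and -0.48, then lay below the median of the expressed genes under both hairpins. In that setting fewer of the 9 genes lay below this median under both, and more lay above it.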
